A study of Mus musculus with 18 samples.

Results

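The effect of losing CD45 was measured in immature group 2 innate lymphoid cells (ILC2) of the bone marrow, over all genes of the count table. Its members are 6 of the 18 RNA sequencing libraries, chosen by their labels: 3 from immature ILC2 of mice labelled CD45 KO x Rag2 KO and 3 from immature ILC2 of mice labelled Rag2 KO. The second group is the control and is called so below. Both groups thus lack Rag2, which is needed to rearrange antigen receptors, so that T and B cells are missing in all mice and the control is not a wild-type mouse. The labels call the immature cells ILC2P and do not say how they were gated, how CD45 was deleted, which part of its gene is missing, the age of the mice, or whether each library is a separate mouse. The p-values below therefore measure the spread between libraries, which may be technical. The other 12 libraries, from mature bone marrow ILC2 and lung ILC2 of the same genotypes, entered the fit for the spread and a comparison at the end.

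ILC2 are lymphocytes without antigen receptors that arise in the bone marrow from innate lymphoid progenitors, under transcription factors such as GATA3 and RORα. They leave for tissues such as the lung, where IL-33 and other epithelial signals make them secrete type 2 cytokines. CD45, encoded by Ptprc, is the abundant receptor tyrosine phosphatase of white blood cells. It removes the inhibitory phosphate from Src family kinases and so sets the threshold of signalling from antigen receptors, and it has also been described as a phosphatase of Janus kinases, which carry signals from cytokine and interferon receptors.

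Total counts were 87647, 94758 and 84446 in the control libraries and 109904, 117933 and 97559 in the CD45 KO libraries, so each CD45 KO library was deeper than each control. Of 1916 genes with enough counts to be tested, 1276 had a mean of at least 10 counts over the immature libraries, and the median gene had 12.7. Levels are given as CPM, the count scaled to library size with TMM factors, and 1 count was worth 8.65 to 12.2 CPM in these libraries. Where a library has no count of a gene, counting error alone leaves room for 26.0 to 36.6 CPM, depending on the library. The libraries matched their labelled cell type: Gata3 was at 2653, 2719 and 2062 CPM in control, and Il1rl1 was at 1452 to 1540 CPM. The T cell genes Cd3e, Cd3d, Cd3g, Cd4 and Cd8a had 0 counts in both groups. Since all mice lack Rag2 and so T cells, this absence does not check the sort. Klrg1, a receptor of mature ILC2, had 0, 3 and 2 counts in the controls and 0, 2 and 1 in the CD45 KO libraries, against 9 to 37 counts per mature library.

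Ptprc, the targeted gene (chromosome 1, 138062861 to 138175708, minus strand, mm10 build), checked the labels. It was at 464, 362 and 342 CPM in the control libraries (42, 35 and 28 counts) and at 98.6, 138 and 42.0 CPM in the CD45 KO libraries (10, 16 and 4 counts). The groups did not overlap, and the log2 fold change was -2.01 ± 0.31 (SE, edgeR quasi-likelihood test with Benjamini-Hochberg adjustment, adjusted p = 7.9e-06). Since oligo-dT priming reads the 3′ ends of transcripts and the deleted part is not known, the remaining counts do not measure a functional transcript.

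Loss of CD45 in immature ILC2 came with higher counts of 4 interferon-inducible GTPase genes, 4 genes of the cytoskeleton list, the surface protein gene Ms4a6b and the chaperone genes Hsp90aa1 and Hsp90b1. It came with lower counts of the noncoding RNA Malat1, the ILC2 receptor gene Il1rl1, the transcription factor genes Rora, Satb1 and Lmo4, and the feedback inhibitor gene Tnfaip3. Of the genes named here, Satb1 passed in 0 of 6 fits with 1 immature library left out, Hsp90aa1 in 1, and Rora and Hsp90b1 in 2. Of the 1916 genes, 32 passed at an adjusted p under 0.05 (1.67%), 21 higher (1.1%) and 11 lower (0.574%), and 236 were at an unadjusted p under 0.05. Ptprc is 1 of the 11. The 3 libraries of each group did not overlap for 30 of the 32 and for 343 of all tested genes (17.9%). On the first principal component of the 6 libraries, with 29.8% of the variance, the controls lay at -15.4 to -9.21 and the CD45 KO libraries at 6.13 to 18.4. In bulk RNA of this kind, fewer cells of 1 kind and less RNA per cell cannot be told apart.

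The count of 32 rested on single libraries: with control library 1, 2 or 3 omitted it was 12, 13 and 19, in that order, and with CD45 KO library 2 omitted it was 21 (libraries carry the replicate numbers of the labels). By the Wald test of DESeq2 6 genes passed, which were Ptprc, Tgtp2, Ms4a6b, Iigp1, Il1rl1 and Tmsb4x, so every other call named below was not made by that test. With each of the 6 libraries left out in turn, 8 genes kept their call throughout: Ptprc, Tgtp2, Ms4a6b, Iigp1, Igtp, Tuba1b, Malat1 and Il1rl1. The abundant repeat-type transcripts Rn45s and Rn4.5s made up 14.1 to 16.2% of counts in the controls and 18 to 22.6% in the CD45 KO libraries. Rn4.5s itself passed (0.53 ± 0.15, adjusted p = 0.0408), a call lost with control library 1, 2 or 3, or KO library 1 omitted (adjusted p up to 0.259) and with only the 12 bone marrow libraries fitted. In a fit without both transcripts 27 genes passed.

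**Figure D1:**
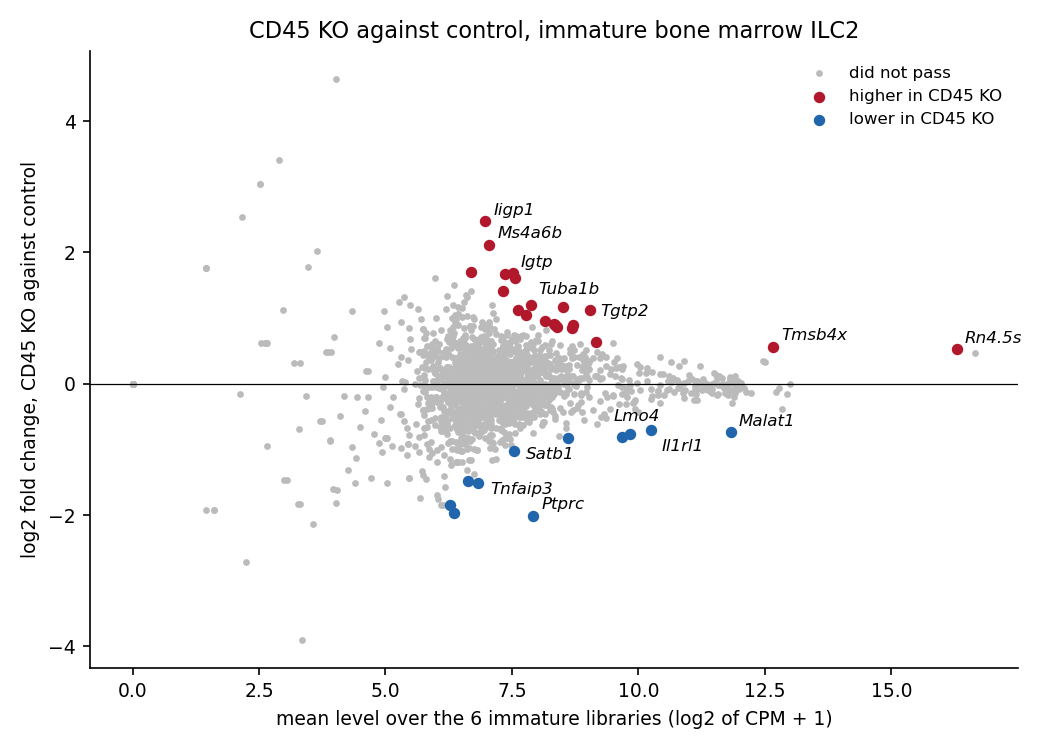
Each point is 1 of 1916 tested genes in immature bone marrow ILC2, with its mean level over the 6 libraries (log2 of CPM + 1) on the x axis and its log2 fold change, CD45 KO against control, on the y axis. The 21 genes that passed and were higher (red) and the 11 that passed and were lower (blue) include Iigp1 at 2.48 and Ptprc at -2.01. Fold changes scatter more widely among genes with few counts.

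Interferon-inducible GTPases are cytoplasmic proteins of the IRG and GBP families that coat and break the vacuoles of intracellular microbes, and interferon raises their genes from a low resting level. Igtp, which encodes the IRG protein Irgm3, was at 88.4, 72.4 and 97.6 CPM in the control libraries. In the CD45 KO libraries it was at 276, 303 and 252 CPM. No library overlapped with the other group, and Igtp rose by a log2 fold change of 1.69 ± 0.33, adjusted p = 0.000787. Tgtp2, a T-cell-specific GTPase of the IRG family, was at 354, 248 and 391 CPM in control and at 641, 701 and 809 CPM in CD45 KO libraries. Its groups were also separate, with a rise of 1.12 ± 0.20, adjusted p = 0.000268. Its neighbour and near copy Tgtp1 was at 332, 279 and 268 CPM in control and 463, 571 and 557 CPM in CD45 KO libraries (0.85 ± 0.22, adjusted p = 0.0247). Reads of Tgtp1 and Tgtp2 can be exchanged in counting, so their separate values are uncertain. Tgtp1 lost its call with control library 1, 2 or 3, or KO library 2 or 3 omitted (adjusted p up to 0.136).

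Iigp1, the IRG effector GTPase that binds such vacuoles, had few control counts. It was at 66.3, 10.3 and 36.6 CPM in control and at 138, 294 and 199.6 CPM in CD45 KO libraries. All 3 CD45 KO libraries were above all controls, which differed widely among themselves, and the rise of 2.48 ± 0.48, adjusted p = 0.000787 was the largest of the passing genes on the log2 scale.

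All 12 tested members of the GTPase list were positive, and their median log2 fold change was 0.85, against -0.01 over all tested genes, of which 49.0% were positive. Of the 12, 4 passed, and 9 had groups that did not overlap with CD45 KO higher (9.39% of all tested genes did). Among those that did not pass, Gbp2, a guanylate-binding protein gene, was at 77.4, 62.0 and 109.8 CPM in control and 217, 138 and 221 CPM in CD45 KO libraries (1.20 ± 0.37, adjusted p = 0.0771). Ifi47, an IRG gene, was at 133, 145 and 232 CPM and 256, 320.2 and 336 CPM (0.86 ± 0.27, adjusted p = 0.0909). Irgm1, which encodes a regulator of the other IRG proteins, had the smallest difference (0.26 ± 0.38, adjusted p = 0.845). All 23 listed genes, tested or not, summed to 2243 to 2441 CPM in the controls and 3825 to 4361 CPM in the CD45 KO libraries. The other 11 of the 23 listed genes had too few counts to be tested, and 2 of the 23 had no count in immature ILC2.

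**Figure D2:**
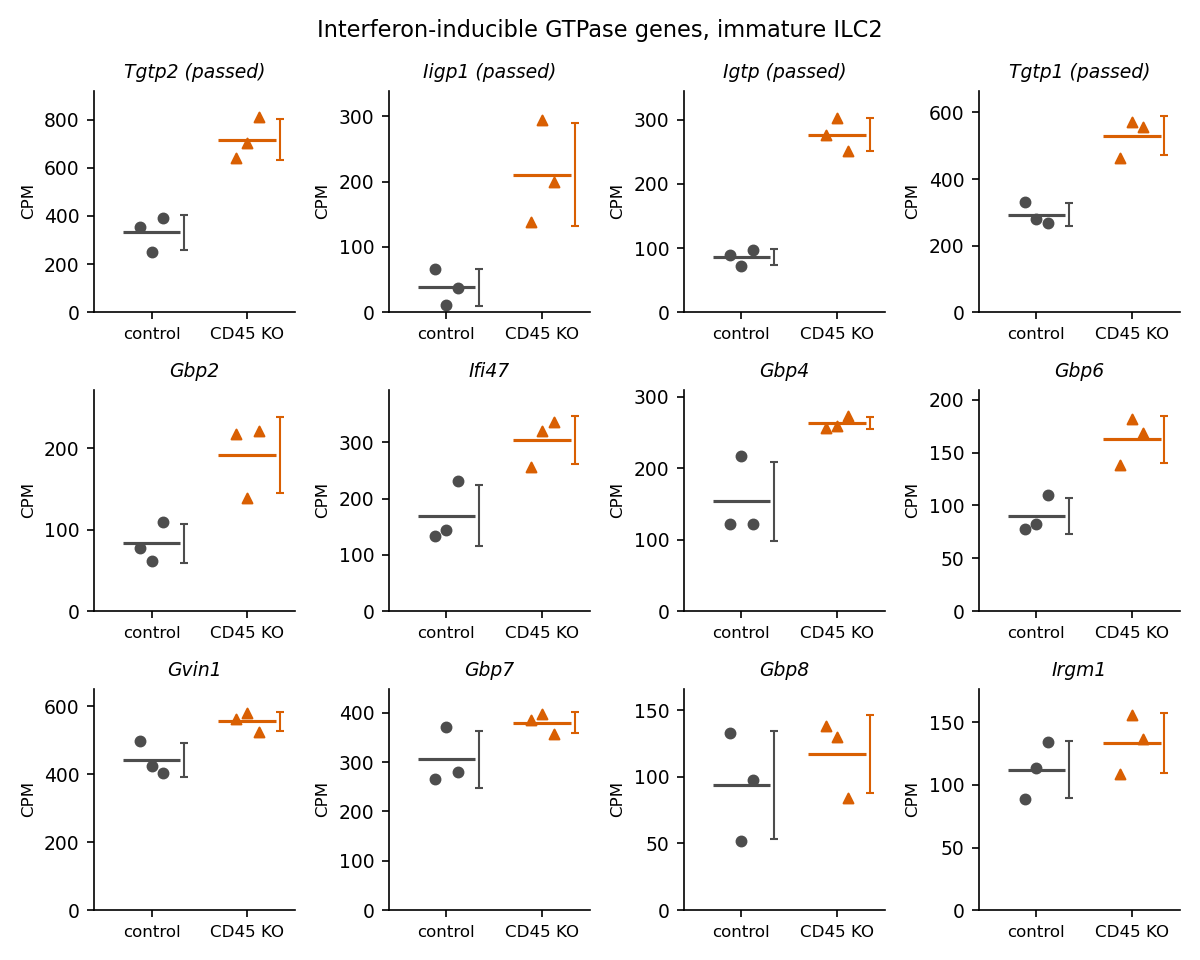
Level in CPM (y axis, from 0) of the 12 tested interferon-inducible GTPase genes in each control library (grey circles) and each CD45 KO library (orange triangles) of immature ILC2, with the mean as a horizontal line and the SD as a bar beside it (n = 3 per group). Tgtp2, Iigp1, Igtp and Tgtp1 passed the test. The groups overlap for Gbp7, Gbp8 and Irgm1.

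Of the 12 tested GTPase genes, 5 lie on chromosome 11 (Irgm1, Tgtp1, Tgtp2, Ifi47 and Igtp), 3 on chromosome 5 (Gbp4, Gbp6 and Gbp8), 2 on chromosome 3 (Gbp2 and Gbp7), 1 on chromosome 7 (Gvin1) and 1 on chromosome 18 (Iigp1). Tgtp1, Tgtp2 and Ifi47 are neighbours within 48985327 to 49096974 of chromosome 11 (mm10), and Igtp lies at 58199556 to 58207591.

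Interferons act through 2 kinds of promoter sites. The activated site, searched here as TTCNNNGAA, is known from genes that respond to interferon gamma, and the response element, whose core was searched as GAAANNGAAA, from genes that respond to type I interferon. Both were searched on both strands in RefSeq promoter windows of 300 bases (250 before and 50 after the start site, build GRCm38.p6), which were found for 27025 genes, 1483 of the 1916 tested. The response element core lay in 6 of the 7 tested GTPase genes with a window, 3 of the 13 higher passing genes with one, 0 of the 9 lower ones, 4.18% of tested genes and 3.99% of all genes. The activated site lay in 4 of 7, 4 of 13, 0 of 9, 8.23% and 9.55%. The 2 sets share genes: the 3 higher passing genes with the core are Igtp, Tgtp1 and Tgtp2, also counted among the 6 GTPase genes. These 3 and Serpina3g are the 4 higher passing genes with the activated site. The 3 windows below belong to the GTPase genes with the smallest p among those with a printed window, and show both sites side by side.

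In the 250 bases before the start sites of Tgtp2 (chr11:49064213-49064462, minus strand), Igtp (chr11:58199306-58199555, plus strand) and Tgtp1 (chr11:48992247-48992496, minus strand), capitals mark the activated site and, 2 bases after it, the response element core. The start sites are those of RefSeq. The GENCODE span of Tgtp1 reaches 48994172, so the Tgtp1 window lies within that span. The lines read 5′ to 3′ on the strand of the gene.
Tgtp2: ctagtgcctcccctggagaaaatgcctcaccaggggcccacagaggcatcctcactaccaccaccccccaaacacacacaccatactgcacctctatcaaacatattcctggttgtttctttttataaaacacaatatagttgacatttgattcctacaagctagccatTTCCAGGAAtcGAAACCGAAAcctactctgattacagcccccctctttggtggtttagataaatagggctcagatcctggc
Igtp: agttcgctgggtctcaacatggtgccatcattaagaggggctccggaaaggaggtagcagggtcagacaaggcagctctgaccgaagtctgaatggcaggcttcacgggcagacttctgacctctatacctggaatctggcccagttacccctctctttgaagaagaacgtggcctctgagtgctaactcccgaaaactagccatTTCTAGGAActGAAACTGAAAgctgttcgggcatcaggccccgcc
Tgtp1: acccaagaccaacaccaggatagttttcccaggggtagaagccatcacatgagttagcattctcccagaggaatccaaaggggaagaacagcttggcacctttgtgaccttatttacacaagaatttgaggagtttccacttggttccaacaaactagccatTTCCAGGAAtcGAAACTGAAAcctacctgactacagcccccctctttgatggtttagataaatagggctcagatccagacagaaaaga
The activated site starts at -81, -45 and -88 from the start site in the order printed, and the response element at -70, -34 and -77. The spacing of 2 bases is the same in all 3, and the sites do not overlap. Tgtp1 and Tgtp2 are near copies, so their windows are not independent cases. Among the other GTPase genes with a window, Gbp7, which did not pass (0.31, adjusted p = 0.637), also held both sites. Gbp2 and Irgm1 held the response element core alone, and Ifi47 held neither site. Whether the sites relate to the fold changes was not tested. A match of letters is a description of the sequence and not a measurement of binding.

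The wider interferon response list, which holds these GTPases and other targets, had 24 tested members, 19 of them positive with a median of 0.39. All tested GTPase genes above except Gvin1 are among the 19, so the 5 negative members are all other targets. Of the 24, 5 passed higher (1.1% of all tested genes did), 4 of them the GTPases above. Of 11 tested genes of interferon receptors, JAK-STAT and IRF factors 5 were positive (median -0.02), and 1 passed. Irf1, an interferon-induced transcription factor gene (-0.19 ± 0.28, adjusted p = 0.866), and the kinase genes Jak1 (0.10 ± 0.22, adjusted p = 0.91) and Jak2 (-0.18 ± 0.27, adjusted p = 0.859) had small differences. Ifngr2, a chain of the interferon gamma receptor, was at 22.1, 41.4 and 12.2 CPM in control and 69.0, 43.3 and 73.5 CPM in CD45 KO libraries (1.19 ± 0.65, adjusted p = 0.456). All 5 tested genes of cytokine feedback had positive fold changes (median 0.41). Of these Pim1, a survival kinase gene induced by STAT5 and other STATs, passed: it was at 155, 145 and 61.0 CPM in control and 355, 225 and 231 CPM in CD45 KO libraries and rose by 1.13 ± 0.31, adjusted p = 0.0321. Pim1 lost its call with control library 1, 2 or 3, or KO library 1 omitted (adjusted p up to 0.276). The cytokine inhibitor genes Socs1 (0.15 ± 0.24, adjusted p = 0.866), Socs2 (0.69 ± 0.40, adjusted p = 0.487) and Cish (0.41 ± 0.25, adjusted p = 0.508) did not pass.

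Antigen presentation genes include many that interferon induces. The interferon-induced proteasome genes are counted in that list, and the proteasome list holds the standard subunits. Of 14 tested antigen presentation genes 13 were positive (median 0.36) and 0 passed by edgeR. B2m, the light chain of MHC class I, was at 5075, 5241 and 5028 CPM in control and 6732, 5763 and 6795 CPM in CD45 KO libraries, which were all higher (0.33 ± 0.12, adjusted p = 0.17). Nlrc5, the activator of MHC class I genes, was at 66.3, 93.0 and 48.8 CPM and 118, 199 and 105 CPM (1.01 ± 0.42, adjusted p = 0.25). Proteasome subunits had 11 positive of 14 (median 0.40) and 0 passing, with Psma3 at 0.68 ± 0.30, adjusted p = 0.294.

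3 further genes with large rises belong to other families. Ms4a6b, a 4-transmembrane surface protein gene of the MS4A family, was at 77.4, 31.0 and 36.6 CPM in control and 197, 234 and 210.1 CPM in CD45 KO libraries. The CD45 KO libraries were alike and far above the controls (2.12 ± 0.40, adjusted p = 0.000705), and it was the single MS4A gene with enough counts to be tested. Serpina3g, an intracellular serine protease inhibitor gene, was at 111, 72.4 and 73.2 CPM and 207, 216 and 273 CPM (1.42 ± 0.35, adjusted p = 0.0118). Ptpn9, a tyrosine phosphatase gene, was at 88.4, 51.7 and 0 CPM and 128, 199 and 147 CPM (1.70 ± 0.44, adjusted p = 0.0247), with 1 control library at 0. Serpina3g lost its call with control library 2 or 3, or KO library 3 omitted (adjusted p up to 0.111) and Ptpn9 with control library 2 or 3, or KO library 2 omitted (adjusted p up to 0.217).

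Apart from Ptprc and Ptpn9, none of the 10 tested tyrosine phosphatase genes passed (median 0.01, 5 positive), among them Ptpn22 (-0.09 ± 0.45, adjusted p = 0.972), a phosphatase that restrains Src family kinases. Of 16 tested genes for Src family kinases and their proximal partners 0 passed by edgeR (median 0.04, 9 positive). Fyn, a Src family kinase gene, was at 88.4, 82.7 and 85.4 CPM in control and 177, 86.5 and 210.1 CPM in CD45 KO libraries, with 1 CD45 KO library among the controls (0.84 ± 0.38, adjusted p = 0.313). Csk, the kinase that adds the inhibitory phosphate CD45 removes, was at -0.28 ± 0.26, adjusted p = 0.71.

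Of 29 tested genes of the cytoskeleton list 4 passed higher (1.1% of all tested genes did) and 0 lower. The list had 24 positive and 5 negative members (median 0.39), and 11 had groups without overlap, CD45 KO higher (9.39% of all tested genes). Tuba1b, an alpha-tubulin gene, was at 210.1, 196 and 268 CPM in control and 562, 579.8 and 357 CPM in CD45 KO libraries and rose by 1.17 ± 0.23, adjusted p = 0.00102. Vim, which encodes the intermediate filament protein vimentin, was at 133, 134 and 159 CPM and 306, 355 and 315 CPM (1.20 ± 0.27, adjusted p = 0.00508). The libraries within each group were close together for Vim, and the groups lay far apart. Tmsb4x, the gene of the actin-binding peptide thymosin beta 4, was at 5141, 4466 and 5980 CPM in control and 8201, 6845 and 7982 CPM in CD45 KO libraries (0.56 ± 0.12, adjusted p = 0.00298). S100a4, a calcium-binding protein gene of motile cells, was at 166, 145 and 268 CPM and 434, 294 and 389 CPM (0.95 ± 0.24, adjusted p = 0.0202). None of these 4 genes had overlapping groups.

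Outside that list, Cdc42, a small GTPase gene that controls actin and cell polarity, was at 376, 258 and 244 CPM in control and 532, 554 and 546 CPM in CD45 KO libraries, which were almost equal, and rose by 0.89 ± 0.20, adjusted p = 0.00593. Tmsb4x lost its call with control library 2 omitted (adjusted p = 0.106), Vim with control library 1 or 2 omitted (adjusted p up to 0.0535), Cdc42 with control library 2 or 3 omitted (adjusted p up to 0.103) and S100a4 with control library 1 or 2, or KO library 1 or 3 omitted (adjusted p up to 0.206).

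Chaperone genes of the cytosol had 14 of 20 tested members positive (median 0.23) and those of the endoplasmic reticulum 13 of 21 (median 0.14), with 1 passing in each. Hsp90aa1, the inducible cytosolic HSP90, was at 188, 279 and 244 CPM in control and 463, 424 and 409.6 CPM in CD45 KO libraries (0.86 ± 0.23, adjusted p = 0.0296). Its counterpart in the endoplasmic reticulum, Hsp90b1, was at 210.1, 217 and 244 CPM and 365, 493 and 389 CPM (0.90 ± 0.24, adjusted p = 0.0296). Both genes had separate groups. The heat shock gene Hspa8 (0.34 ± 0.13, adjusted p = 0.227) and the endoplasmic reticulum chaperone genes Hspa5 (0.67 ± 0.26, adjusted p = 0.215) and Calr (0.52 ± 0.21, adjusted p = 0.25) did not pass. Hsp90aa1 lost its call with control library 1, 2 or 3, or KO library 1 or 2 omitted (adjusted p up to 0.215) and Hsp90b1 with control library 1, 2 or 3, or KO library 2 omitted (adjusted p up to 0.187).

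Oxidative phosphorylation genes were mostly positive, 40 of 49 tested (median 0.25), and 0 passed by edgeR. Uqcrh, a subunit of respiratory complex III, was at 309.6, 351 and 329.5 CPM in control and 483, 502 and 494 CPM in CD45 KO libraries (0.57 ± 0.20, adjusted p = 0.151), and Cycs, which encodes cytochrome c, was at 88.4, 41.4 and 36.6 CPM and 98.6, 173 and 179 CPM (1.41 ± 0.41, adjusted p = 0.0574). Chchd2, a mitochondrial protein gene outside this list, passed: it was at 177, 320.5 and 183 CPM and 444, 407 and 431 CPM and rose by 0.89 ± 0.23, adjusted p = 0.0209, a call lost with control library 1 or 3, or KO library 1 or 3 omitted (adjusted p up to 0.211). Glycolysis genes had 6 of 11 positive (median 0.24) and cytosolic ribosomal protein genes 29 of 83 (median -0.05), with 0 passing in either.

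Of 11 tested cell cycle and replication genes 9 were positive (median 0.56), and Tuba1b, counted here too, was the 1 that passed. Pcna, the sliding clamp of DNA replication, was at 44.2, 20.7 and 97.6 CPM in control and 98.6, 112 and 199.6 CPM in CD45 KO libraries, all higher (1.35 ± 0.46, adjusted p = 0.134), and Hmgb2, a chromatin protein gene of dividing cells, was at 254, 217 and 159 CPM and 434, 450.0 and 221 CPM (0.81 ± 0.27, adjusted p = 0.125). The near-identical replication histone genes Hist1h2ao and Hist1h2ap passed with overlapping groups. Hist1h2ao was at 44.2, 31.0 and 219.7 CPM in control and 187, 545 and 105 CPM in CD45 KO libraries (1.62 ± 0.42, adjusted p = 0.0243), and Hist1h2ap followed the same order (1.68 ± 0.45, adjusted p = 0.0312). CD45 KO library 2 was the highest for both, and with it omitted the adjusted p was 0.692 and 0.702. Both also lost their call with control library 1 or 2 omitted, and Hist1h2ap with only the 12 bone marrow libraries fitted.

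**Figure D3:**
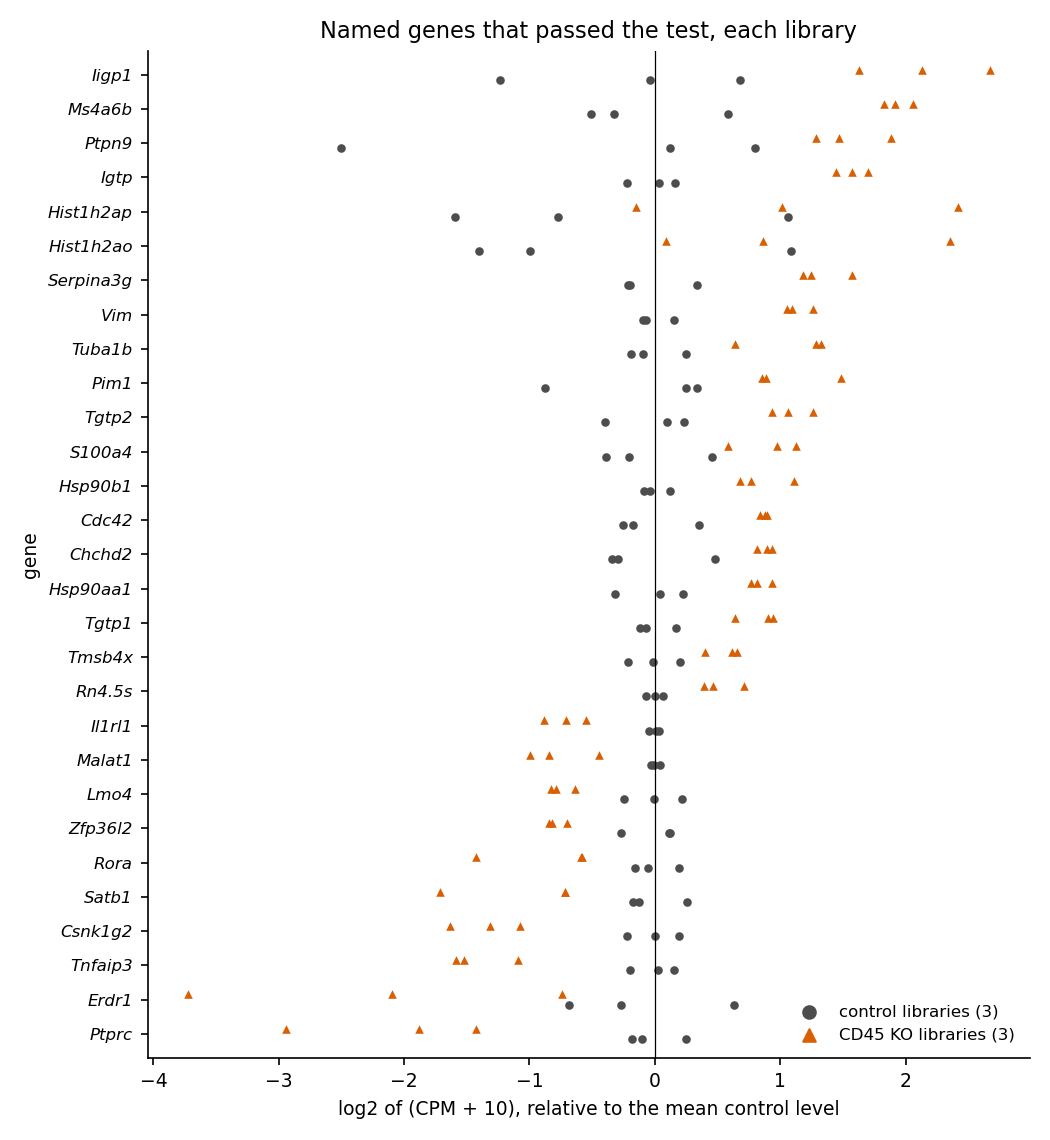
Level of named genes that passed in immature ILC2, in every library, as log2 of (CPM + 10) relative to the mean control level on the x axis, with genes on the y axis. Grey circles are the 3 control and orange triangles the 3 CD45 KO libraries. The groups overlap for Hist1h2ao and Hist1h2ap, and they lie close for Erdr1.

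Of 18 tested members of the ILC2 identity panel 2 passed, Il1rl1 and Rora, both lower. Fold changes were negative for 12 of the 18 and positive for 6 (median -0.29). Il1rl1, which encodes the IL-33 receptor ST2, was at 1515, 1540 and 1452 CPM in control and 1025, 917 and 809 CPM in CD45 KO libraries. The controls were within a narrow range and all CD45 KO libraries below it, and Il1rl1 fell with a log2 fold change of -0.71 ± 0.15, adjusted p = 0.00298. Rora, the transcription factor gene needed for ILC2 development, was at 442, 569 and 476 CPM and 325, 329 and 179 CPM (-0.82 ± 0.23, adjusted p = 0.0408). Rora lost its call with control library 1, 2 or 3, or KO library 3 omitted (adjusted p up to 0.309), with no filter on low counts, without Rn45s and Rn4.5s and with only the 12 bone marrow libraries fitted.

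The remaining panel genes did not pass. Gata3, the lineage-defining transcription factor gene of ILC2, was at 2129, 2224 and 1901 CPM in the CD45 KO libraries (-0.25 ± 0.13, adjusted p = 0.448), and its regulator Bcl11b was at 309.6, 465 and 293 CPM in control and 493, 511 and 409.6 CPM in CD45 KO libraries (0.40 ± 0.21, adjusted p = 0.441). Id2, the repressor gene of all innate lymphoid cells, was at 0.14 ± 0.14, adjusted p = 0.724. Kit, a growth factor receptor gene of progenitors, was at 122, 114 and 73.2 CPM in control and 39.4, 51.9 and 21 CPM in CD45 KO libraries, which did not overlap (-1.41 ± 0.46, adjusted p = 0.119). Cxcr6, a chemokine receptor gene, was at 475, 403 and 439 CPM and 237, 268 and 252 CPM, again without overlap (-0.79 ± 0.23, adjusted p = 0.0584). Il7r, the IL-7 receptor gene, overlapped between groups (-0.52 ± 0.19, adjusted p = 0.171), as did Il2ra (0.09 ± 0.17, adjusted p = 0.901), Icos (-0.47 ± 0.24, adjusted p = 0.422), Thy1 (-0.32 ± 0.24, adjusted p = 0.633) and Ccr2 (0.46 ± 0.21, adjusted p = 0.34). Ets1 (-0.44 ± 0.19, adjusted p = 0.286), Il17rb (-0.10 ± 0.29, adjusted p = 0.945), Arg1 (0.23 ± 0.22, adjusted p = 0.714), Ly6a (0.16 ± 0.15, adjusted p = 0.714) and Ccr9 (-0.13 ± 0.18, adjusted p = 0.844) complete the panel with Klrg1.

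Among 13 tested cytokine receptor genes 10 were negative (median -0.41), and Il1rl1 alone passed. Il27ra, the receptor gene of the interleukin 27 that restrains ILC2, was at 133, 124 and 97.6 CPM in control and 59.1, 69.2 and 63.0 CPM in CD45 KO libraries (-0.88 ± 0.43, adjusted p = 0.373). Tnfrsf18, the costimulatory receptor GITR, was at 276, 227 and 195 CPM and 158, 156 and 179 CPM (-0.51 ± 0.28, adjusted p = 0.45). Neither gene's groups overlapped, and neither passed. Effector genes were at low counts in immature ILC2, and 0 of the 14 tested passed by edgeR (median 0.23, 9 positive).

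In the list of progenitor and early lymphoid genes 7 of 12 were negative (median -0.22), and Lmo4 and Satb1 passed. Lmo4, a LIM-domain cofactor of GATA factors, was at 1327, 1137 and 964 CPM in control and 729, 658 and 641 CPM in CD45 KO libraries and fell with -0.76 ± 0.17, adjusted p = 0.00461. Satb1, an organiser of chromatin in lymphoid progenitors, was at 299, 227 and 219.7 CPM and 69.0, 147 and 147 CPM (-1.03 ± 0.29, adjusted p = 0.0499). For both, every CD45 KO library was below every control. Lmo4 lost its call with control library 1 omitted (adjusted p = 0.127). Satb1 lay at the threshold and lost it with any 1 of the 6 libraries omitted (adjusted p up to 0.355), with either filter alternative, with only the 6 immature libraries fitted, with the replicate number as a block, with only the 12 bone marrow libraries fitted and without Rn45s and Rn4.5s.

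Tnfaip3 encodes A20, a ubiquitin-editing enzyme that shuts off NF-kB and is itself an NF-kB target. It was at 188, 145 and 171 CPM in the control and at 49.3, 51.9 and 73.5 CPM in the CD45 KO libraries. Each CD45 KO library lay well under the lowest control, and Tnfaip3 fell with a log2 fold change of -1.51 ± 0.37, adjusted p = 0.0115, a call lost with control library 1, or KO library 1 or 2 omitted (adjusted p up to 0.101) and with no filter on low counts. All 12 tested members of the list of NF-kB subunits, targets and inhibitors had negative fold changes (median -0.48), but only Tnfaip3 passed and 6 of the 12 had a mean of at least 10 counts. Birc3, an NF-kB target that blocks cell death, was at 199, 145 and 134 CPM in control and 78.9, 121 and 63.0 CPM in CD45 KO libraries (-0.83 ± 0.35, adjusted p = 0.266), and Nfkbiz, a nuclear inhibitor, was at 232, 196 and 219.7 CPM and 158, 147 and 189 CPM (-0.40 ± 0.28, adjusted p = 0.6). Groups with CD45 KO lower and no overlap were seen for 4 of the 12 (8.51% of all tested genes). The subunit gene Nfkb1 (-0.16 ± 0.20, adjusted p = 0.816) and the inhibitor gene Nfkbia (-0.12 ± 0.20, adjusted p = 0.868) had small differences.

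The letters of an NF-kB site, searched as GGGANTTTCC on both strands, were in neither RefSeq promoter window of Tnfaip3, in 3 of the 9 NF-kB list members with a window, in 0.944% of tested genes with one and in 0.466% of all genes. A wider form of the NF-kB consensus, which includes the first form, was added after that search. It matched 6 of those 9 genes, 2 of the 9 lower passing genes with a window (Tnfaip3 and Satb1), 2 of the 13 higher ones (Serpina3g and Vim), 14.6% of tested genes and 9.55% of all genes. The 250 bases before the upstream of the annotated start sites of Tnfaip3 (chr10:19015411-19015660, minus strand) are shown because this gene alone of the NF-kB list passed. The start site is that of RefSeq. The GENCODE span of Tnfaip3 reaches 19015657, so nearly all of this window lies within that span. Capitals mark the matches of the wider form, which start at -125 and -12.
Tnfaip3: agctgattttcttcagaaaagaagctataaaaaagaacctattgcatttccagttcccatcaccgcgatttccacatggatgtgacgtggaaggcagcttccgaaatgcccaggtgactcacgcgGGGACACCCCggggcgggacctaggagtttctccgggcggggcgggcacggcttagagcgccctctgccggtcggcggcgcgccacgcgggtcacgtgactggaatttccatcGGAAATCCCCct
The match at -12 is on the strand opposite the gene, and the one at -125 reads as a match on either strand.

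Genes that respond at once to stimulation or tissue handling had fold changes of both signs. Since 6 of the 26 tested had a mean of at least 10 counts, whether they moved together cannot be judged. Of 26 tested immediate-early genes 8 were positive, 12 negative and 6 at 0 counts in both groups, and 0 passed by edgeR (median -0.22). Myc, a growth-promoting transcription factor gene, was at 44.2, 20.7 and 24.4 CPM in control and 108, 77.9 and 94.5 CPM in CD45 KO libraries, which were all higher (1.60 ± 0.54, adjusted p = 0.13), and Junb was at -0.37 ± 0.28, adjusted p = 0.639.

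Zfp36l2, which encodes a protein that speeds mRNA decay and holds lymphocytes in quiescence, was at 1117, 1127 and 854 CPM in control and 572, 579.8 and 630.2 CPM in CD45 KO libraries. The groups were far apart, and it fell with -0.81 ± 0.19, adjusted p = 0.00896, a call lost with control library 1 or 2 omitted (adjusted p up to 0.1). It was the 1 passing gene of 13 tested mRNA decay and antiproliferative factors, of which 9 were negative (median -0.25), with Tob1, an antiproliferative gene, at 111, 62.0 and 122 CPM and 19.7, 26.0 and 42.0 CPM (-1.70 ± 0.60, adjusted p = 0.152). Csnk1g2, a casein kinase gene, was at 144, 165 and 122 CPM and 39.4, 51.9 and 63.0 CPM (-1.47 ± 0.41, adjusted p = 0.0408), a call lost with any 1 of the 6 libraries omitted (adjusted p up to 0.205), with no filter on low counts and with only the 12 bone marrow libraries fitted.

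Malat1, a nuclear long noncoding RNA, was at 4654, 4507 and 4430 CPM in control and 2514, 3332 and 2269 CPM in CD45 KO libraries. The controls were nearly equal and all CD45 KO libraries lower, and it fell with -0.74 ± 0.15, adjusted p = 0.00113. Of the list of nuclear long noncoding RNAs 11 had a count in immature ILC2 and 6 were tested, of which 5 were negative and 1 had 0 counts in both groups (median -0.41), and Neat1 (-0.52 ± 0.30, adjusted p = 0.496) and Gas5 (-0.26 ± 0.18, adjusted p = 0.581) did not pass. Erdr1, a short gene at the end of the sex chromosomes, was at 99.5, 72.4 and 195 CPM in control and 0, 69.2 and 21 CPM in CD45 KO libraries (-1.85 ± 0.53, adjusted p = 0.048). Its highest CD45 KO library lay just below its lowest control, and it lost its call with control library 1 or 3, or KO library 1 or 3 omitted (adjusted p up to 0.339), with no filter on low counts, without Rn45s and Rn4.5s and with only the 12 bone marrow libraries fitted. The remaining lower gene of the 32 is known by a clone name alone.

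**Figure D4:**
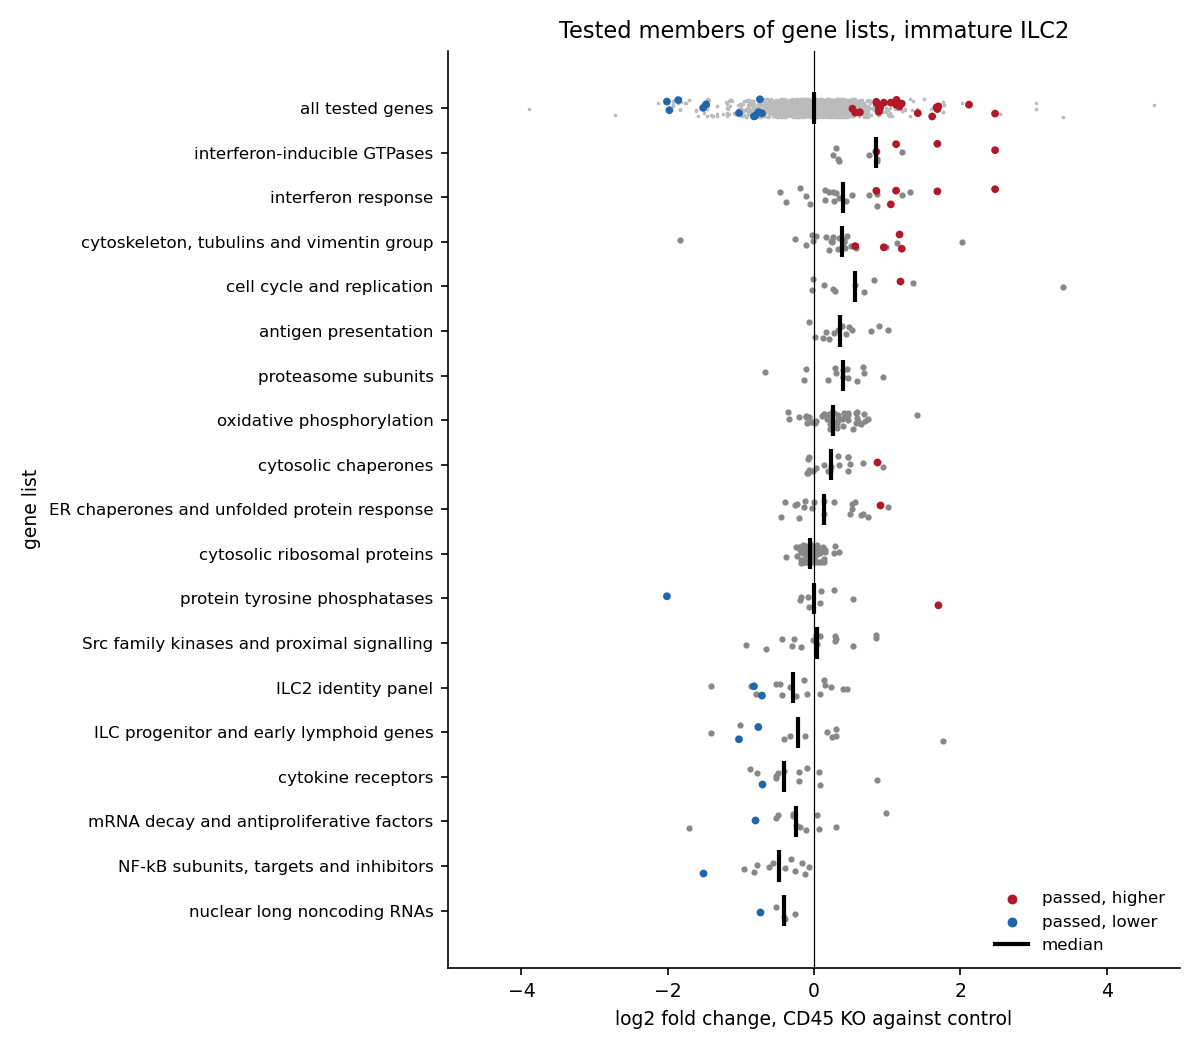
Log2 fold change, CD45 KO against control in immature ILC2 (x axis), of the tested members of gene lists (y axis), with passing genes in red (higher) or blue (lower) and the median of each list as a black bar. Medians are 0.85 for interferon-inducible GTPases and -0.48 for the NF-kB list, against -0.01 for all 1916 tested genes. Members at 0 counts in both groups are not drawn.

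Just past the threshold, Igf1r, a growth factor receptor gene, was at 144, 134 and 183 CPM in control and 59.1, 51.9 and 63.0 CPM in CD45 KO libraries (-1.38 ± 0.40, adjusted p = 0.0524), and Glul, the glutamine synthetase gene, was at 188, 248 and 159 CPM and 108, 69.2 and 94.5 CPM (-1.15 ± 0.34, adjusted p = 0.0592). Both had separate groups and did not pass. Lif, a cytokine gene of the IL-6 family, had 0 counts in the 3 controls and 10 in the CD45 KO libraries, with 1 of these also at 0. Its level was 2.87-fold higher with the control group set at a limit of 3 counts and the 10 CD45 KO counts taken as exact (adjusted p = 0.0693). The counting error of those 10 is not included. Tcp11l2 (-1.85 ± 0.56, adjusted p = 0.0659), Ubald1 (-1.85 ± 0.57, adjusted p = 0.0743), Hnrnpa1 (-0.68 ± 0.21, adjusted p = 0.0909) and the microRNA entry Mir6236 (0.63 ± 0.20, adjusted p = 0.089) lay there too.

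Markers of other cells were counted in both groups. The 22 myeloid markers summed to 72.4 to 111 CPM in the controls and 69.2 to 116 CPM in the CD45 KO libraries, with Itgam, Csf1r and Cd68 at 0 counts in both. The 12 markers of B lineage cells summed to at most 24.4 CPM in the controls and 34.6 CPM in the CD45 KO libraries, with Pax5 at 0, and the 8 markers of type 3 ILC to at most 11.1 and 29.6 CPM, with Il22, Il17a and Il23r at 0. Natural killer cell and ILC1 markers summed to 110 to 243 CPM in the controls and 234 to 296 CPM in the CD45 KO libraries, almost all of it Ccl5 and Il2rb, while Ncr1, Eomes and Tbx21 had 0 counts in both. Erythroid markers, mostly globin, summed to 97.6 to 124 CPM and 86.5 to 158 CPM, and mast cell and basophil markers to at most 22.1 and 42.0 CPM. The sums for dendritic cells and blood progenitors were higher. Dendritic cell markers summed to 1139 to 1233 CPM in the controls and 1071 to 1449 CPM in the CD45 KO libraries, most of it Ccr9, which is also in the ILC2 panel, while Flt3, Itgax, Siglech, Xcr1 and Zbtb46 had 0 counts in both. Blood progenitor markers summed to 1355 to 1489 CPM and 1400 to 1481 CPM, most of it the panel gene Ly6a, with Gata2, Mecom, Procr and Slamf1 at 0 counts in both. T cell markers summed to 159 to 186 CPM and 179 to 197 CPM, all of it Lat and Cd27. The part of these sums in the results was not tested.

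The same loss of CD45 was compared in the mature ILC2 of the bone marrow. Of the 32 genes that passed in immature ILC2, 25 had a fold change of the same sign in mature ILC2 (78.1%, against 60.6% of all tested genes), among them 10 of the 11 lower genes, and 3 of them passed there too, of 5 that did. The difference between the effects was tested directly: by edgeR 0 of 1916 genes passed and 94 were at an unadjusted p under 0.05, and by DESeq2 0 passed. The genes with the smallest p included Tnfaip3, with 0.24 ± 0.37 in mature ILC2 and a difference of -1.75 ± 0.52, adjusted p = 0.761, and Tuba1b, with -0.07 ± 0.28 and a difference of 1.24 ± 0.37, adjusted p = 0.761. Igtp (0.91 ± 0.36), Iigp1 (1.42 ± 0.57) and Tgtp2 (0.75 ± 0.21) were positive in mature ILC2, where the median of the 12 GTPase genes was 0.61. The library labelled mature CD45 KO replicate 1 had 238 CPM of Ptprc against 101 and 88.0 CPM in the rest of its group, and without it 0 genes passed for the difference and 38 for immature ILC2.

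In lung ILC2, 17 of the 32 had the same sign as in immature ILC2 (53.1%, against 50.8% of all tested genes), and 4 of them passed there, of 48 that did. Between immature and lung ILC2 the CD45 effect differed for 7 genes (0.365%), 4 of them higher and 3 lower in the immature comparison, with 239 at an unadjusted p under 0.05. Lmo4 fell in immature ILC2 and was at 0.84 ± 0.14 in lung, where controls held 1155 to 1741 CPM and CD45 KO libraries 2531 to 2792 CPM. Tnfaip3 was far higher in lung than in immature cells, at 2075 to 2193 CPM in control and 2388 to 2865 CPM in CD45 KO libraries, and had a lung effect of 0.28 ± 0.12. Vim (-0.25 ± 0.17), S100a4 (-0.34 ± 0.14) and Hsp90aa1 (-0.68 ± 0.27) had negative values in lung, and Satb1 a positive one (0.93 ± 0.38). The median of the 12 GTPase genes was -0.16 in lung, where Igtp and Tgtp2 had few counts. Igtp had a mean of 13.8 CPM in lung control and 15.3 CPM in lung CD45 KO libraries, and Tgtp2 of 44.1 and 30.6 CPM. The lung effects had large SEs for Igtp (0.21 ± 0.96), Iigp1 (0.17 ± 1.62), Tgtp2 (-0.63 ± 0.64) and Tgtp1 (0.08 ± 0.66). With so little precision, the lung median cannot decide whether the rise of these genes was absent there. All 6 lung libraries had 52 to 105 counts of Xist and 0 counts of the Y-linked genes Ddx3y, Eif2s3y, Kdm5d and Uty, and all 12 bone marrow libraries 0 counts of Xist and counts of Y-linked genes, so tissue, sex and stage of maturation cannot be told apart in this comparison. With only the 12 bone marrow libraries fitted, 24 genes passed in immature ILC2. The count of 7 was 2 with immature control library 1 omitted and 3 with immature CD45 KO library 1 omitted.

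**Figure D5:**
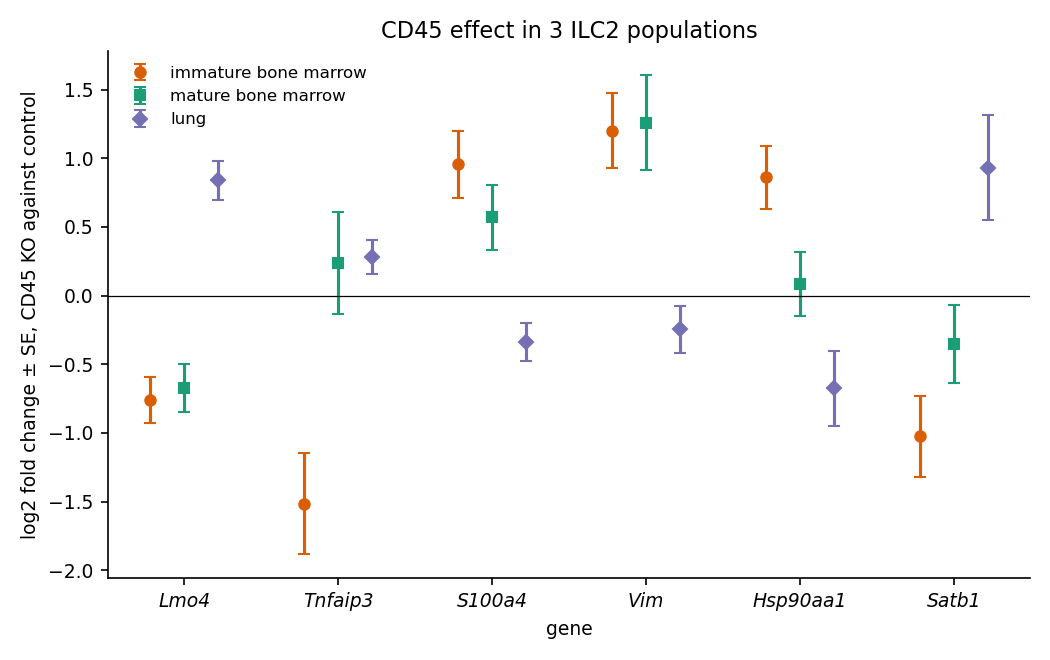
Log2 fold change ± SE, CD45 KO against control (y axis), of 6 of the 7 genes (x axis) whose effect differed between immature and lung ILC2, in immature bone marrow (orange circles), mature bone marrow (green squares) and lung ILC2 (purple diamonds), 3 libraries per group. Lmo4 is at -0.76 in immature, -0.67 in mature and 0.84 in lung ILC2, and Tnfaip3 is at -1.51, 0.24 and 0.28.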

How the data were processed

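Per the labels' protocols, ILC2 were sorted from bone marrow or lung (200 cells in 1 field, 100 cells per tube in another, not settled in the sources used here), lysed, reverse transcribed from barcoded oligo-dT primers and amplified. The submitters' processing notes name STAR and mm10. The sources used here do not give how reads were counted (tool, annotation, barcodes, strand), which leaves overlapping genes and near copies uncertain. The authors deposited unscaled counts, 24781 gene entries by 18 libraries. 11836 entries had no count, and 26 had names turned into dates. The ERCC spike-ins of the protocol were not analysed here.

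Libraries were grouped by population and genotype as labelled, 6 groups of 3. Genes were filtered with filterByExpr (minimum count 10), counts scaled by TMM, and edgeR 4.0.16 in R 4.3.3 fitted 6 group means over all libraries (12 residual degrees of freedom). Quasi-likelihood tests were adjusted by Benjamini-Hochberg over 1916 genes, with a threshold of 0.05. SE is the size of the log2 fold change over the root of the F statistic. Same-numbered deviations of CD45 KO and control correlated at -0.035, 0.064 and 0.051 across genes, and differently numbered ones at -0.080 to 0.027. With so few counts per gene these values cannot settle whether replicate numbers pair the libraries. The main fit used no pairing. Positions are from GENCODE M21 (1886 of 1916 genes matched, 98.4%) and promoters from RefSeq GRCm38.p6. The values of a few genes are not reported here. Genes named were otherwise all passing genes except predicted models, up to 10 genes at an adjusted p of 0.05 to 0.1, the ILC2 panel, up to 4 members of each list by p, and 8 per difference of effects. Other list members named for their role (Irgm1, Irf1, Jak1, Jak2, Csk, Ptpn22, Nfkb1, Nfkbia, Junb) were chosen after their values were seen. The members and gene lists were chosen with earlier results of these data known. Alternatives were DESeq2 size factors, DESeq2 1.42.0 Wald tests, no filter, a filter of 10 counts in 3 libraries, only the libraries compared, a replicate block, each library left out, no Rn45s and Rn4.5s, no mature CD45 KO replicate 1 and, chosen after seeing the data, only bone marrow libraries. The steps were tested on simulated data.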

Additional observations from a re-analysis of the deposited data

Results flagged for a closer look

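The effect of CD45 loss differed between immature bone marrow and lung ILC2 for 7 genes by a contrast of the 2 effects in the same edgeR fit. The differences below are the immature effect minus the lung effect, on the log2 scale, with Benjamini-Hochberg adjusted p over 1916 genes. Lmo4, the LIM-domain cofactor gene, differed by -1.60 ± 0.22, adjusted p = 3.87e-07. The other 2 genes with a lower effect in immature ILC2 were Tnfaip3, the A20 gene (-1.80 ± 0.39, adjusted p = 0.00646), and Satb1, the chromatin organiser gene (-1.96 ± 0.48, adjusted p = 0.0319). Of the 4 genes with a higher effect in immature ILC2, 3 are given here: the calcium-binding protein gene S100a4 (1.29 ± 0.28, adjusted p = 0.00646), the vimentin gene Vim (1.45 ± 0.32, adjusted p = 0.00865) and the chaperone gene Hsp90aa1 (1.54 ± 0.36, adjusted p = 0.0144). Within immature ILC2 the 3 libraries of each group did not overlap for any of the 7, nor for 17.9% of all tested genes. The 7 were picked with these same libraries, so this separation adds no support. The lung libraries are female and the bone marrow libraries male by their Xist and Y-linked counts, and the cells also differ in stage, so tissue, sex and stage cannot be told apart for these differences. In mature bone marrow ILC2, also male by these counts, the CD45 effect on Tnfaip3 was 0.24 ± 0.37.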

How the results depend on the processing

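The count of 32 genes in immature ILC2 was 6 by the DESeq2 Wald test, with 126 at an unadjusted p under 0.05, and 12 to 26 with each immature library left out. It lay between 24 and 38 in the other alternatives. The count for the immature minus lung difference, 7, was 3 by DESeq2, 13 with only the libraries of the groups compared, 2 to 9 with each immature or lung library left out, and 10 without mature CD45 KO replicate 1. The count for the immature minus mature difference was 0 in every alternative run. Ptprc passed in all. Of 31 passing genes (predicted models left out), 8 passed with each library left out, 6 in every other alternative and 5 in all (Ptprc, Tgtp2, Ms4a6b, Iigp1 and Il1rl1), and none changed sign. 4 named genes that did not pass changed sign with libraries left out: Il2ra ranged from -0.0323 to 0.228, Il17rb from -0.34 to 0.34, Calca from -0.24 to 1.97 and Mcl1 from -0.426 to 0.00369 (log2). With the replicate number as a block, 30 genes passed in immature ILC2, 7 for the lung difference and 0 for the mature difference. Whether these numbers pair the libraries is not settled. Depth limits what can be said of genes with few counts: a median tested gene had 12.7 counts per library.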
